A study of Mus musculus with 6 samples.

Results

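The cornified envelope is the layer of cross-linked protein that stratified squamous epithelia lay down beneath the plasma membrane as their cells differentiate terminally. The plakins envoplakin and periplakin and the glutamine-rich protein involucrin are deposited early as a scaffold, and transglutaminases, which are calcium-dependent enzymes, then join glutamine to lysine side chains and so tie the scaffold and later proteins such as loricrin into an insoluble sheet. It is best known from the epidermis and the lining of the mouth and oesophagus, and it is not a feature of the secretory cells of a salivary gland.

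The genes described here are 10 named members of this system: the scaffold genes Ivl, Evpl and Ppl, the transglutaminase genes Tgm1, Tgm3 and Tgm5, and 4 further genes of terminal differentiation, Cnfn, Nccrp1, Krtdap and Calml3. They were picked by name out of 47643 gene IDs, and they were picked with their change between the days of culture in view, so that all day 5 and day 7 values below are a description and carry no test of their own.

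RNA was measured in mouse submandibular gland organoids (mSGOs), structures that grow in Matrigel from dissociated adult gland cells, here first grown as spheres. The cells came from 3 female C57BL/6 mice of 8 to 12 weeks, and per the labels organoids of mice 1, 2 and 3 were taken at day 5 and at day 7, which gave 3 libraries per day. All 6 libraries were controls, that is untreated and non-irradiated, and all were kept in WRY medium, which holds Wnt3a- and R-spondin1-conditioned medium, EGF, FGF2, N2, insulin, dexamethasone and Y27632. As no other medium, treatment or older culture is part of the comparison, day stands for time in this one medium. Any other difference between the day 5 and day 7 libraries cannot be told apart from it.

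The libraries were made by 3′-end sequencing of polyadenylated RNA, so that each count is 1 read near a transcript's 3′ end. Levels are given as CPM, that is counts per 1000000 counts of the library after the trimmed mean (TMM) scaling of edgeR, and were not divided by gene length because each transcript is read once at its end. Total counts were between 1918198 and 2837397 per library, so that 3 counts, taken as the floor of detection, correspond to 1.04 to 1.51 CPM. Epithelial identity was clear, since Epcam, Cdh1, Krt5, Krt14, Krt7, Krt8, Krt18 and Trp63 together gave 14434 to 18210 CPM at day 5 and 11545 to 15990 CPM at day 7. Of these only Krt8 passed, falling from 109 ± 12.2 to 69.2 ± 8.76 CPM (-0.65 ± 0.20 in log2, adjusted p = 0.037 by edgeR). That call was lost in 4 of 6 fits without 1 library, and the part of Krt8 in the values below was not tested. The acinar list of the labelled gland was low, at 6.03 to 12.2 and 11.5 to 25.5 CPM in sum, with Prol1, Dcpp1, Dcpp2 and Lpo at 0. Most of the sum was Aqp5, at 7.84, 5.02 and 9.73 CPM at day 5 and 9.97, 10.8 and 24.0 CPM at day 7. Its days did not overlap, but it did not pass (0.93 ± 0.38 in log2, adjusted p = 0.12 by edgeR). Amy1 was lower in mean at day 7 (2.02 and 0.790 CPM) and did not pass either (adjusted p = 0.29 by edgeR). The part of Aqp5 in the values below was not tested. Blood, vessel and stromal genes were at or near 0, as the 5 erythroid genes had no count, and the 7 endothelial and 7 fibroblast genes summed to at most 1.15 and 1.96 CPM in any library. The 9 macrophage genes summed to 8.03 to 10.7 CPM at day 5 and 9.30 to 13.9 CPM at day 7, with 6 of them at 0, among them Adgre1, Csf1r and Lyz2. Of the other 3, Cd68, which encodes a lysosomal protein, rose from 1.00 ± 0.645 to 5.27 ± 1.97 CPM (2.36 ± 0.61 in log2, adjusted p = 0.015 by edgeR), a call that was lost without day 5 mouse 2, day 5 mouse 3 or day 7 mouse 2 (1.91 to 2.37), and Cd14 was at 8.13 ± 1.03 and 5.65 ± 2.87 CPM and did not pass (adjusted p = 0.47). The part of Cd68 in the values below was not tested. The 5 myoepithelial genes were higher in sum at day 7 (7.34 to 11.8 CPM) than at day 5 (1.51 to 2.16 CPM). Acta2 passed (adjusted p = 0.0026 by edgeR), from 0 at day 5 to 5.37, 8.33 and 0.979 CPM, the last under the floor. Mylk did not pass (adjusted p = 0.26 by edgeR). Cnn1 and Tagln had no count at day 5 and 4 and 3 at day 7. Myh11 had 1 count at day 5 and 0 at day 7. The part of these genes in the values below was not tested.

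Glutamine and lysine are the residues that transglutaminases join, and among the 10 genes the scaffold genes had the highest shares of glutamine codons. In the GENCODE vM39 annotation of GRCm39, Ivl has 125 glutamine codons among 468, or 26.7%, which was rank 5 of 21588 protein-coding genes, whereas the median gene had 4.33%. It has 47 lysine codons (10.0% against a median of 5.35%). A stretch of 20 codons, chosen as the one with most glutamine and lysine codons of which at least 3 were lysine, is shown to make this visible. It covers codons 71 to 90 at chr3:92479794-92479853 on the minus strand in exon 2, and the capitals mark its 8 glutamine and 4 lysine codons.
Ivl codons: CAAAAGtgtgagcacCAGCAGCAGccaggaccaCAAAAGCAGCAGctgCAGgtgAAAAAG
Among the 10, Evpl and Ppl followed at 9.78% and 9.35% glutamine codons, ranks 308 and 392 of 21588, so that they stood out far less than Ivl. Their lysine codons made up 6.88% and 7.87%. In glutamine codons the other 7 genes lay between 3.44% in Tgm1 and 6.02% in Nccrp1, much closer to the median. Cnfn stood out on the lysine side, with 1 lysine codon among 111.

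**Figure D1:**
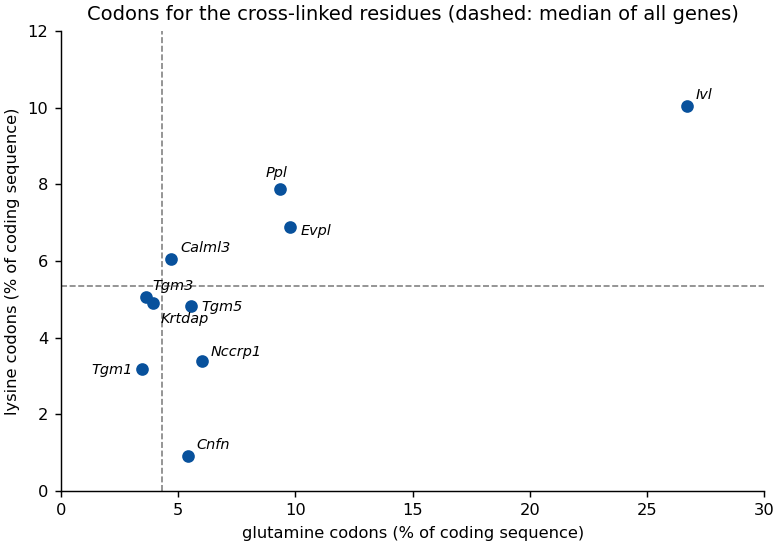
Glutamine codons (x axis, % of the coding sequence) against lysine codons (y axis, %) for the 10 genes, 1 point per gene, with dashed lines at the medians of 21588 protein-coding genes. Ivl lies far to the right at 26.7% glutamine, followed by Evpl and Ppl at 9.78% and 9.35%, while the other 7 genes lie between 3.44% and 6.02%.

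Promoters were compared next, because AP-1, KLF and grainyhead-like proteins are well-known regulators of terminal differentiation in squamous epithelia. The 250 bases before and 50 bases after the start of each gene's canonical transcript were searched on both strands. The AP-1 letters TGANTCA occurred in 2 of the 10 promoters, Ivl and Krtdap, against 7.14% of 21770 protein-coding promoters. The TATA letters TATAAA occurred in 3, Ivl, Tgm3 and Krtdap, against 13.2%. The KLF letters CACCC occurred in 8 of 10 against 58.7%, and the grainyhead-like letters ACCGGT in none against 2.48%. Ivl and Krtdap were thus the genes that held both AP-1 and TATA letters, with the match starting 116 and 78 bases before the start for AP-1 and 29 and 27 bases before it for TATA. Their last 125 bases before the start are printed beside those of Cnfn and Nccrp1, the genes with the widest day 7 to day 5 differences, in which neither motif was found. Capitals mark the AP-1 and TATA matches and all 4 are written along the gene's own strand in GRCm39, at chr3:92481043-92481167 (minus) for Ivl, chr7:30487202-30487326 (plus) for Krtdap, chr7:25069150-25069274 (minus) for Cnfn and chr7:28246680-28246804 (minus) for Nccrp1.
Ivl promoter: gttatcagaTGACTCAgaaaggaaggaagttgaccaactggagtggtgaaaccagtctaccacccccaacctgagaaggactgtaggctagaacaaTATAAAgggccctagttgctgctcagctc
Krtdap promoter: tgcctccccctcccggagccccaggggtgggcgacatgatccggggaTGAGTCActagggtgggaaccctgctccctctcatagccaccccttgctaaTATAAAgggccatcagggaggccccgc
Cnfn promoter: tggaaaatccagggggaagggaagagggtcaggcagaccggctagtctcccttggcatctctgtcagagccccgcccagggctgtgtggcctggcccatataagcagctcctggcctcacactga
Nccrp1 promoter: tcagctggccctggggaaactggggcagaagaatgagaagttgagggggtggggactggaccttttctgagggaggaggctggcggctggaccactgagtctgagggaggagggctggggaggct
These matches describe letters only, and the absence of a motif from this window says nothing about the factor.

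Across the 10 genes, day 7 was characterised by high Cnfn, Nccrp1 and Calml3, plakin levels (Evpl and Ppl) about 2 times those of day 5, a smaller difference for Ivl, and no common shift of Krtdap. All 10 had at least 1 count in at least 2 libraries and therefore entered the edgeR fit across all 15792 genes that met this filter. Nccrp1 and Tgm3 had a day 5 count in 1 library only, so that they met the filter through their day 7 libraries. Of these 10, 6 were past the threshold used throughout (Benjamini-Hochberg adjusted p below 0.05 over all genes and an absolute log2 fold change above 0.6), and all 6 were higher at day 7. In the same fit 12.0% of all genes tested were past this threshold, 7.22% higher and 4.82% lower, but as the genes were chosen on this contrast nothing is read from the excess. All 3 day 7 libraries lay above all 3 day 5 libraries for 7 of the 10, against 15.4% of genes tested, and for none lay all day 7 libraries below, against 15.5%. The median log2 fold change of the 10 was 1.49, and that of all genes tested was -0.01. Past the threshold, Tgm1 had the least room (log2 fold change 1.85 ± 0.58, SE). Ivl (0.58 ± 0.21, adjusted p = 0.088 by edgeR) fell outside the threshold on both measures. These are bulk samples, in which fewer cells of a type and less RNA per cell cannot be told apart.

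**Figure D2:**
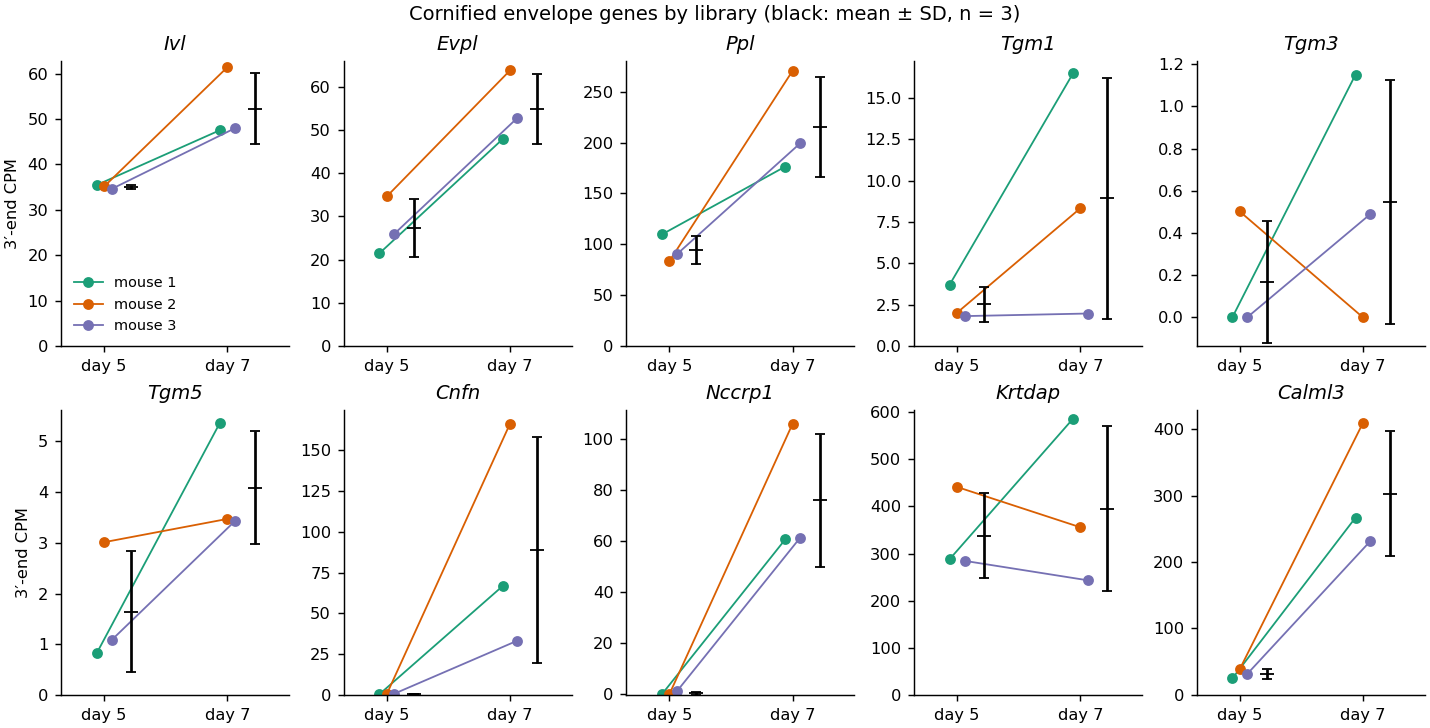
3′-end CPM (y axis, linear, each panel on its own scale) of the 10 genes at day 5 and day 7, with 1 point per library, lines joining the libraries of a mouse, and black marks for the mean ± SD of 3 libraries. Cnfn, Nccrp1 and Calml3 climb from 0.545, 0.360 and 31.6 CPM to 88.8, 75.9 and 303 CPM, while the 3 lines of Krtdap cross between the days.

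Among the scaffold genes, the plakins differed between the days in every mouse. Evpl encodes envoplakin, which links the envelope to desmosomes and keratin filaments (ENSMUSG00000034282, chr11:116111385-116128923, minus strand). It was measured at 21.4, 34.6 and 25.9 CPM at day 5 in mice 1, 2 and 3, and at 47.9, 63.9 and 52.9 CPM at day 7. The days did not overlap, and the fitted log2 fold change was 1.01 ± 0.24 (SE, n = 3 per day), past the threshold. It missed the threshold without day 5 mouse 1 (0.86), day 5 mouse 3 (0.98) or day 7 mouse 2 (0.89).

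Ppl encodes periplakin, the partner of envoplakin (ENSMUSG00000039457, chr16:4904155-4950377, minus strand). Its level was 110, 83.3 and 90.1 CPM at day 5 and 176, 271 and 199 CPM at day 7. Again no day 7 library fell within the day 5 range, and mouse 2 went from the lowest value to the highest. The log2 fold change of 1.19 ± 0.21 was past the threshold and stayed so in all 6 fits that left out 1 library.

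Ppl and Evpl proteins pair with each other, and the ratio of their counts differed more between mice at day 5 than at day 7. It was 5.12 (95% exact binomial interval 3.79 to 7.03), 2.41 (1.81 to 3.23) and 3.47 (2.66 to 4.58) at day 5 in mice 1, 2 and 3. At day 7 it was 3.68 (3.01 to 4.52), 4.24 (3.61 to 5.01) and 3.77 (3.04 to 4.70). The intervals, which cover counting error only, separate mouse 1 from mouse 2 at day 5, and all 3 overlap at day 7, so that the ratio had no common direction between the days. Over their aligned coding bases the genes are 61.1% identical, and neither matches the other in the last 300 bases, where the reads lie.

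Ivl encodes involucrin (ENSMUSG00000049128, chr3:92478209-92481042, minus strand). Its day 5 values were the closest together of the 10, with 35.5, 35.1 and 34.6 CPM and a coefficient of variation of 1.28%. They rest on 86, 70 and 96 counts, for which counting error alone is wider than this spread. No steadiness of Ivl is therefore read from it. At day 7 the values were 47.6, 61.4 and 48.0 CPM, all above day 5, by 1.34, 1.75 and 1.39 times within mice 1, 2 and 3. The log2 fold change of 0.58 ± 0.21 lay below the 0.6 limit, and the adjusted p of 0.088 by edgeR was above 0.05. Ivl was therefore not past the threshold on either measure. It passed only without day 7 mouse 3 (0.64). Without day 7 mouse 1 the log2 fold change was above the limit (0.65), but Ivl was not called (adjusted p = 0.053 by edgeR).

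The transglutaminase genes among the 10 were scarce at both days, and the 3 together gave 2.88 to 5.52 CPM at day 5 and 5.87 to 23.0 CPM at day 7. Tgm1 encodes the membrane-bound enzyme that cross-links envelope proteins at the cell border (ENSMUSG00000022218, chr14:55937466-55951383, minus strand). Its counts were 9, 4 and 5 at day 5 and 43, 24 and 4 at day 7, or 3.71, 2.01 and 1.80 CPM and then 16.5, 8.33 and 1.96 CPM. Mice 1 and 2 were 4.44 and 4.15 times higher at day 7, whereas mouse 3 was 1.09 times its day 5 value and lay within the day 5 range. The log2 fold change was 1.85 ± 0.58 and past the threshold. That call was lost without day 5 mouse 1 (2.24), day 5 mouse 2 (1.73), day 5 mouse 3 (1.63), day 7 mouse 1 (1.11) or day 7 mouse 2 (1.91), and it was kept only without day 7 mouse 3 (2.27). Tgm1 therefore differed between mice at day 7 by 8.42 times from lowest to highest, the widest spread of the 9 genes other than Tgm3, whose lowest library was 0.

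Tgm5, which encodes an epidermal transglutaminase (ENSMUSG00000053675, chr2:120876592-120916322, minus strand), had 2, 6 and 3 counts at day 5 and 14, 10 and 7 at day 7. On the CPM scale these are 0.825, 3.01 and 1.08 against 5.37, 3.47 and 3.43, so that the days did not overlap but came close in mouse 2. Its log2 fold change of 1.37 ± 0.57 was not past the threshold. Tgm3 encodes a transglutaminase that is made as a zymogen (ENSMUSG00000027401, chr2:129854257-129892319, plus strand). It had 1 count at day 5, in mouse 2, and 4 at day 7, in mice 1 and 3. The ratio of day 7 to day 5, corrected for library totals, was 3.82 with a 95% counting interval of 0.378 to 188, and a difference was not detectable at this depth.

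The more abundant transglutaminase of these organoids was Tgm2, the widely expressed tissue transglutaminase, which is not one of the 10. It was measured at 7.42, 7.53 and 6.49 CPM at day 5 and at 28.4, 79.5 and 77.3 CPM at day 7, which the edgeR fit across all genes gave as 3.11 ± 0.36 in log2 (adjusted p = 1.5e-05). Mouse 1 had the lowest Tgm2 and the highest Tgm1 of the day 7 libraries, and Tgm1 made up 32.1% of the counts of Tgm1, Tgm2, Tgm3 and Tgm5 there, 9.13% in mouse 2 and 2.35% in mouse 3. At day 5 this share was 31.0%, 15.4% and 19.2%. Tgm4, Tgm6, Tgm7 and Epb42, the catalytically inactive relative, had no count in any library, which allows up to 3 counts each per library, and F13a1 had 1. Any 2 of the genes Tgm1, Tgm2, Tgm3, Tgm5, Tgm6 and Tgm7 are 58.5% to 63.3% identical over their aligned coding bases.

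Among the other 4 genes, Cnfn and Nccrp1 were close to absent at day 5. Cnfn encodes cornifelin, a small cysteine-rich envelope protein (ENSMUSG00000063651, chr7:25067040-25069156, minus strand). Its counts were 1, 1 and 2 at day 5 and 174, 479 and 68 at day 7, or 0.412, 0.502 and 0.721 CPM against 66.7, 166 and 33.3 CPM. Every day 5 library was thus under the floor of 3 counts and every day 7 library far above it. The log2 fold change was 7.21 ± 0.65, past the threshold with all 6 libraries and without any 1 of them, and the ratio of summed counts was 172 with a 95% counting interval of 66.9 to 634. The highest day 7 library was 5.00 times the lowest.

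Nccrp1 encodes an F-box-associated domain protein of squamous epithelia (ENSMUSG00000047586, chr7:28243010-28246679, minus strand). It had 0, 0 and 3 counts at day 5 and 158, 305 and 125 at day 7, or 60.6, 106 and 61.2 CPM. Mice 1 and 3 were alike at day 7 and mouse 2 was 1.75 times the lowest value. The log2 fold change was 7.35 ± 0.51, with a range of 6.82 to 10.5 over the fits without 1 library. The upper end came without day 5 mouse 3, the day 5 library that held its 3 counts. The ratio of summed counts was 187 with an interval of 63.7 to 910.

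Calml3, which encodes a calmodulin-like protein of differentiating epithelial cells (ENSMUSG00000063130, chr13:3852896-3854316, minus strand), was present at day 5 and higher at day 7 in every mouse. It gave 24.7, 38.7 and 31.3 CPM at day 5 and 267, 409 and 232 CPM at day 7. The rise was 10.8, 10.6 and 7.39 times within mice 1, 2 and 3, with a log2 fold change of 3.27 ± 0.25 that was past the threshold in all 6 fits without 1 library. It went from a level near that of Ivl to one above Ppl in each mouse.

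Krtdap encodes a small secreted protein of suprabasal keratinocytes (ENSMUSG00000074199, chr7:30487321-30490522, plus strand) and was the most abundant of the 10, rank 328 of 15792 genes by mean CPM. It was measured at 288, 441 and 285 CPM at day 5 and 586, 356 and 243 CPM at day 7. The days overlapped, as mouse 1 was 2.03 times higher at day 7 while mice 2 and 3 were at 0.806 and 0.855 of their day 5 values. The log2 fold change of 0.23 ± 0.26 was not past the threshold, and it became -0.17 without day 7 mouse 1.

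**Figure D3:**
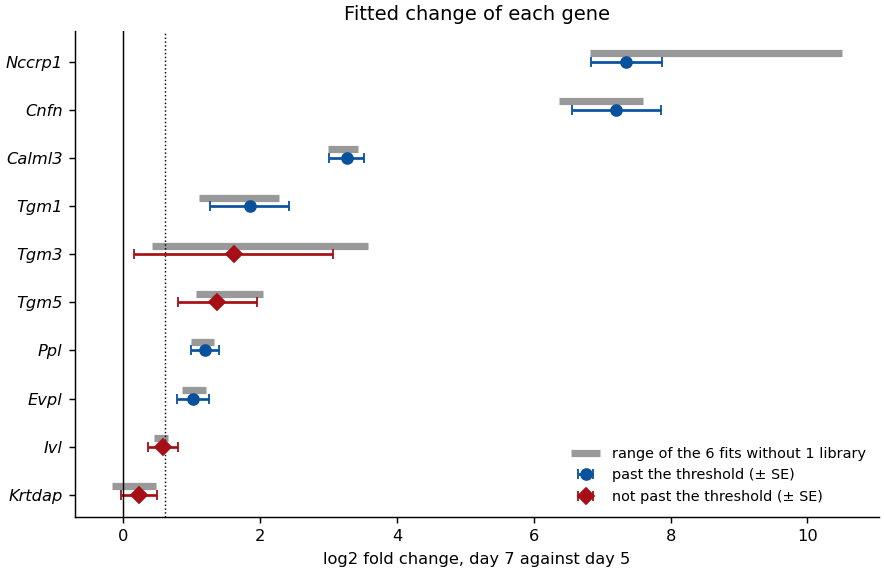
Log2 fold change, day 7 against day 5 (x axis), of the 10 genes (y axis) with SE bars, with grey bars for the lowest and highest value in 6 fits that each left out 1 library and a dotted line at 0.6. Nccrp1, Cnfn and Calml3 lie at 7.35, 7.21 and 3.27, the wide bars of Tgm3 reflect 5 counts in all, and the grey bar of Krtdap reaches below 0.

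Which mouse gave the highest day 7 value was not the same for all genes. Mouse 2 was highest at day 7 for 6 of the 10, Ivl, Evpl, Ppl, Cnfn, Nccrp1 and Calml3, and mouse 1 for the other 4, Tgm1, Tgm3, Tgm5 and Krtdap. Mouse 3 was highest for none and lowest for 5, and mouse 1 was lowest for 4, Ivl, Evpl, Ppl and Nccrp1. The libraries also differed in the share of counts from the protein genes of the mitochondrial genome, which lay between 2.60% and 2.72% at day 5 and came to 2.26% in day 7 mouse 1, and 0.926% and 0.924% in day 7 mice 2 and 3. Day 7 mouse 1 was thus close to day 5 in this measure. Among the day 7 libraries it held both the highest values of 4 genes and the lowest values of 4 others. The part of this share in those values was not tested. Reads that named no gene made up 13.7% to 14.4% of the day 5 libraries but 9.12% to 9.74% of the day 7 libraries. This measure separated the days fully, so that it cannot be told apart from day, and its part in the differences was not tested either.

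Seen as a sum, the 10 genes gave 485, 639 and 471 CPM at day 5 and 1275, 1445 and 875 CPM at day 7, and their make-up turned over. Krtdap alone was 59.5%, 69.0% and 60.4% of the summed counts at day 5, and 45.95%, 24.6% and 27.8% at day 7. Calml3 went from between 5.11% and 6.65% to between 20.9% and 28.3%. Cnfn and Nccrp1 were at most 0.153% and 0.229% at day 5 and reached 11.5% and 7.33% in day 7 mouse 2. Ppl stayed within 13.04% to 22.6% at day 5 and 13.8% to 22.8% at day 7, but its share moved in different directions within mice, from 22.6% to 13.8% in mouse 1, from 13.04% to 18.7% in mouse 2 and from 19.1% to 22.8% in mouse 3.

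**Figure D4:**
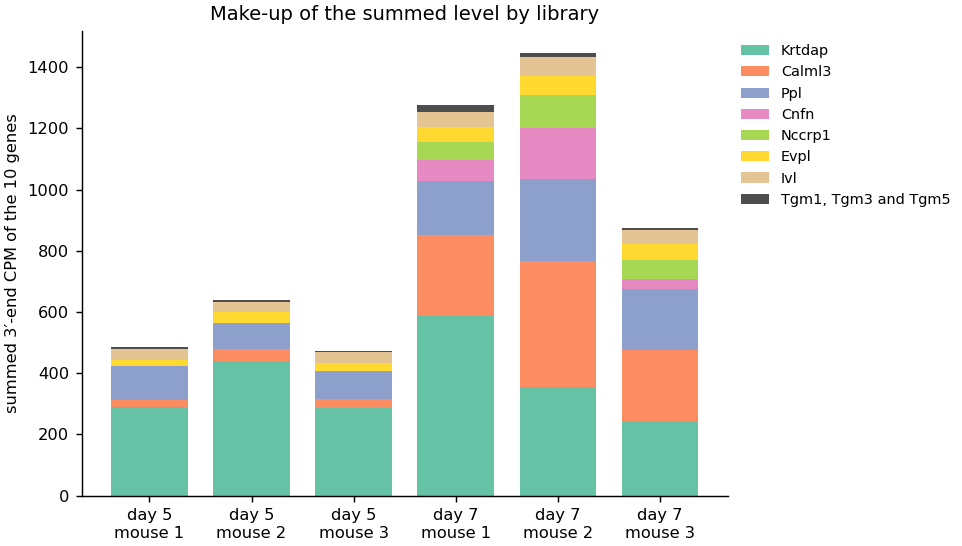
Summed 3′-end CPM of the 10 genes (y axis, from 0) in each of the 6 libraries (x axis), with 1 colour per gene and the 3 transglutaminase genes shown together. The day 5 bars reach 471 to 639 CPM and are mostly Krtdap, and the day 7 bars reach 875 to 1445 CPM with Calml3, Cnfn and Nccrp1 added.

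By level, day 5 ran from Krtdap (338 ± 89.4 CPM, SD, n = 3) through Ppl (94.4 ± 13.7), Ivl (35.1 ± 0.448), Calml3 (31.6 ± 6.96) and Evpl (27.3 ± 6.71) down to Tgm1 (2.51 ± 1.05), Tgm5 (1.64 ± 1.20), Cnfn (0.545 ± 0.158), Nccrp1 (0.360 ± 0.624) and Tgm3 (0.167 ± 0.290). Ivl, Calml3 and Evpl overlapped as neighbours in that order, as did Tgm1 and Tgm5, and the last 3 were at or under the floor. At day 7 the order was Krtdap (395 ± 175), Calml3 (303 ± 94.1), Ppl (215 ± 49.2), Cnfn (88.8 ± 69.2), Nccrp1 (75.9 ± 26.0), Evpl (54.9 ± 8.16), Ivl (52.3 ± 7.90), Tgm1 (8.93 ± 7.29), Tgm5 (4.09 ± 1.11) and Tgm3 (0.547 ± 0.577). There the ranges of neighbours overlapped everywhere except between Ppl and Cnfn, between Ivl and Tgm1 and between Tgm5 and Tgm3. Cnfn and Nccrp1 had moved from below Tgm1 to above Evpl and Ivl in mean level, although the range of Cnfn, 33.3 to 166 CPM, took in both.

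Other genes of the pathway are set beside the 10 as a description only, since their lists too were chosen with earlier results of these data known. They were taken from 8 lists with 76 genes in the files, of which 61 were tested. Of these, 23 were past the threshold and higher at day 7, and 2 were past it and lower. Over all genes tested the shares were 7.22% and 4.82%, and nothing is read from the excess. Genes without any day 5 count entered the fit only through their day 7 libraries. Their median log2 fold change was 0.77, or 0.70 when genes without any day 5 count are set at the bound given by 3 counts over the day. The sizes given for them below come from the same edgeR fit, with p adjusted over all 15792 genes.

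Among other envelope proteins 10 of 11 genes tested rose and none fell, with a median log2 fold change of 3.33 (2.08 with genes at 0 at their bound). Rptn, which encodes repetin of the cornified layer, went from 1 count in the day 5 libraries to 171 in those of day 7, and the ratio was 163 (95% counting interval 28.9 to 6488; adjusted p = 4.3e-06). Cdsn, which encodes corneodesmosin of modified desmosomes, had no count at day 5 and 194 at day 7, at least 61.8-fold higher when 3 counts are allowed over day 5 (adjusted p = 1.5e-05). Scel, which encodes sciellin, rose from 3.54 ± 1.49 to 47.7 ± 31.5 CPM (3.73 ± 0.46, adjusted p = 3.5e-05). The most abundant of them, Dmkn, which encodes dermokine and lies 6833 bases from Krtdap, rose from 240 ± 41.5 to 608 ± 89.4 CPM (1.34 ± 0.20, adjusted p = 0.00022), whereas Krtdap itself did not pass. The tested gene that did not pass in this list, named after its value was seen, was Krt1, with 0 and 4 counts. The list had 15 genes in the files, and those not tested were Flg2, Tchhl1, Krt2 and Hrnr. Flg2 and Tchhl1 had no count, Krt2 had 1, and Hrnr had 7, all in day 7 mouse 2. Among the calls, those of Flg and Tchh were lost in 3 and 4 of the 6 fits without 1 library.

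Plakins outside the scaffold gave no call, against 12.0% of all genes tested, and with 4 genes nothing is read from this. The 4 tested, Dsp, Dst, Macf1 and Plec, had log2 fold changes between -0.49 and 0.47, and Dsp, which encodes desmoplakin and was the highest, went from 1330 ± 113 to 1840 ± 248 CPM (0.47 ± 0.19, adjusted p = 0.12). The day 7 libraries of Dsp (1555 to 1997 CPM) all lay above those of day 5 (1203 to 1420 CPM), whereas those of Macf1 all lay below. Evpl and Ppl were at 1.01 and 1.19 in the same fit.

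Of 13 transglutaminase substrates of other families 3 rose and 1 fell, with a median of 0.47. The small proline-rich protein genes Sprr1a (63.6 ± 16.3 to 735 ± 206 CPM, 3.53 ± 0.25, adjusted p = 8.1e-08) and Sprr3 (1 against 828 counts, ratio 791, interval 142 to 31270, adjusted p = 6.7e-06) had the smallest p. Sprr1b rose from 267 ± 11.5 to 490 ± 138 CPM (0.88 ± 0.21, adjusted p = 0.010), a call that was lost without any 1 of the day 5 libraries or without day 7 mouse 2 (0.79 to 0.90). Cst6, which encodes the protease inhibitor cystatin M/E and was named after its value was seen, fell by 1.83 on the log2 scale (adjusted p = 0.022), and its call was lost without the same libraries (-1.89 to -1.75). Fabp5, the fatty acid-binding protein gene with the highest level here, was at 2223 ± 349 and 2973 ± 1026 CPM and did not pass (adjusted p = 0.26).

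Proteases and inhibitors of envelope processing gave 5 higher and none lower of 10 tested, with a median of 0.75. Asprv1, which encodes a protease that trims filaggrin, had 1 and 165 counts (ratio 158, interval 27.9 to 6261, adjusted p = 2.4e-06), and Klk7, which encodes a kallikrein of desquamation, had 1 and 86 (ratio 82.1, interval 14.4 to 3281, adjusted p = 0.00013). Spink5, the inhibitor of such kallikreins, rose from 142 ± 15.1 to 518 ± 143 CPM (1.87 ± 0.22, adjusted p = 2.0e-05). Ctsd, which encodes cathepsin D and was the most abundant, rose from 500.1 ± 39.2 to 826 ± 294 CPM (0.72 ± 0.22, adjusted p = 0.043), but this call was lost without any 1 library except day 7 mouse 1 (0.40 to 0.81).

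Lipid envelope genes gave 3 higher and none lower of 12, with a median of 0.71 (0.69 with genes at 0 at their bound). Elovl4, which encodes an elongase of very long fatty acids, rose from 5.68 ± 1.93 to 45.7 ± 12.1 CPM (3.02 ± 0.32, adjusted p = 6.7e-06). Alox12b, which encodes a lipoxygenase needed to bind lipid to the envelope, had no count at day 5 and 97 at day 7, at least 30.9-fold higher over the same floor (adjusted p = 8.8e-05). Abhd5, the most abundant of the list, was at 75.5 ± 4.45 and 88.3 ± 9.02 CPM and did not pass (adjusted p = 0.48).

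Relatives by sequence of Calml3, Cnfn and Nccrp1 were examined next. Among calmodulin genes 1 rose and 1 fell of 4 tested. The one that rose, Calm4, a skin-type relative 33441 bases from Calml3, went from 20.4 ± 6.43 to 40.3 ± 4.86 CPM (0.99 ± 0.26, adjusted p = 0.016). The Calm4 call was lost without day 5 mouse 1, day 5 mouse 3 or day 7 mouse 2 (0.82 to 0.92). None of the 6 tested relatives that share the PLAC8 domain of Cnfn or the F-box-associated domain of Nccrp1 passed, and the most abundant, Fbxo6, was at 18.4 ± 3.51 and 24.7 ± 5.68 CPM (adjusted p = 0.36).

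**Figure D5:**
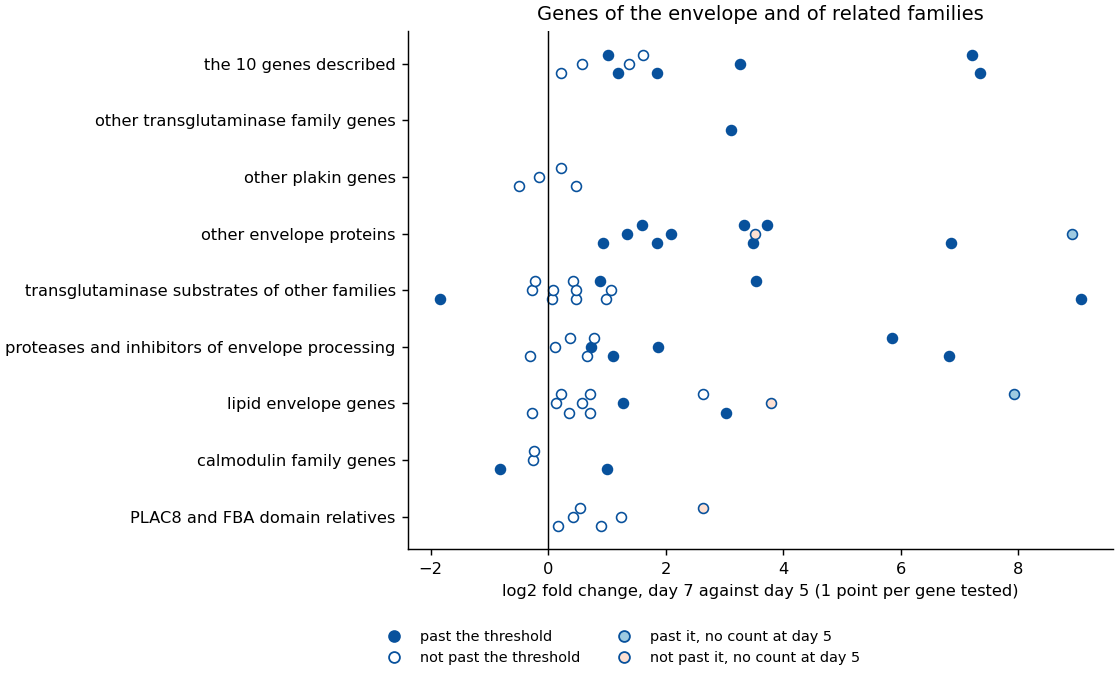
Log2 fold change, day 7 against day 5 (x axis), with 1 point per gene tested, for the 10 genes and for 8 lists of related genes (y axis, points spread vertically for legibility). Filled points are past the threshold, and pale points had no count at day 5, so that their position depends on the small count added by the fit. Of the other envelope proteins 10 of 11 are past the threshold and of the other plakins 0 of 4, against 12.0% of all genes tested.

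Position along the chromosome was examined through the closest annotated protein-coding genes, 2 on each side. Of these 40 neighbours 24 were tested, 6 were past the threshold and higher, and none was lower, against 7.22% and 4.82% of all genes tested. The 6 were Sprr5 beside Ivl (no count at day 5 and at least 8.91-fold higher over the floor), Lipe (1.42 ± 0.31) and Cxcl17 (2.19 ± 0.52) beside Cnfn, Dmkn (1.34 ± 0.20) and Sbsn (1.86 ± 0.32) beside Krtdap, and Calm4 (0.99 ± 0.26) beside Calml3. Dmkn, Sbsn and Calm4 are also in the pathway lists above, and Sprr5 entered the fit only through day 7, so that no result about position is read from the count. The neighbours of Evpl, Ppl, Tgm1, Tgm3, Tgm5 and Nccrp1 gave no call. Tgm5 lies between Epb42 and Tgm7 and Tgm3 lies beside Tgm6, relatives that had no count.

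Likeness of profile was measured as the root mean square difference of log2(CPM + 1) after centring over the 6 libraries, among 8066 named protein-coding genes whose mean level reached 10 CPM. The closest gene to Cnfn was Lce3a, a late cornified envelope gene, at 0.187, and the closest to Calml3 was Prss27 at 0.158. Evpl was closest to Calm4 at 0.0797, Ppl to Sertad3 at 0.0756, Ivl to Wdfy1 at 0.0266 and Krtdap to Gpt2 at 0.101. The matches of Nccrp1 (Psca, 0.380) and Tgm5 (Ovol1, 0.226) were looser, and Tgm3 (Stra6, 0.107) had too few counts for its profile to be read. Among the 10 themselves Cnfn and Nccrp1 were each other's nearest, at 0.540, as were Ivl and Evpl, at 0.298. These are descriptions over 6 libraries that share their scaling, and nothing is said of shared control.

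Ambiguity of the counts was checked at the end of each transcript, where the reads lie. The last 300 bases of 7 of the 10 genes had no match to a transcript of another gene at 95% identity or more, and the longest matches of Tgm5, Calml3 and Krtdap were 31, 36 and 45 bases. No exon of another gene overlaps any of the 10 on the same strand. On the opposite strand exons of other genes overlap Cnfn, Tgm1 and Krtdap, and because the sources used here do not give the strand setting of the counts, reads of such partners cannot be told apart from theirs.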

How the data were processed

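The authors aligned reads of the Lexogen QuantSeq 3′ libraries to GRCm39 and deposited raw counts, whole numbers for each Ensembl gene ID in each library. They name edgeR. The aligner, annotation release and strand setting are not given in the sources used here. The 5 closing entries that name no gene were left out. Names, by exact ID match to GENCODE vM39, were found for 43465 of 47643 IDs (91.2%).

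Genes counted at least once in no fewer than 2 libraries were fitted with edgeR 4.0.16 in R 4.3.3 (TMM scaling, glmQLFit and glmQLFTest, day as the only term) with Benjamini-Hochberg adjustment, and the threshold was adjusted p below 0.05 with an absolute log2 fold change above 0.6. SE is the absolute log2 fold change over the square root of F. The fit was tested on simulated data. The labels name mice 1 to 3 at both days, and libraries with the same number were taken as the same mouse on that ground alone. Their deviations from the day means correlated at 0.138, -0.0998 and 0.164 over 8172 genes. Libraries with different numbers were not compared, so that these values do not show the pairing for any mouse. The p-values measure the spread between 3 mice per day, and counting intervals (95%, exact) cover counting error only.

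The genes and lists were chosen with earlier results of these data known. Outside the 10 genes, each list's calls with the smallest p, up to 3, and its most abundant gene were named, together with the closest profile and the called neighbours of each of the 10. Of 80 list symbols 4 were not matched to the files, namely Eppk1, Ctsv and older symbols of 2 genes that the lists also hold under their current names. A few genes that this rule names are not reported here. Sequences were read from the GRCm39 genome and GENCODE transcripts, ends were compared with blastn 2.17.0, and figures were drawn with matplotlib 3.10.9. Alternatives were DESeq2 1.42.0, other scalings and filters, robust fitting, glmTreat, the mouse as a block, thinning, and leaving out each library.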

Additional observations from a re-analysis of the deposited data

How the results depend on the processing

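The count of the 10 genes past the threshold stayed within 1.5 times the reported 6 under every alternative run. Their median log2 fold change, reported as 1.49, was 1.19 after filterByExpr, which drops Tgm1, Tgm3 and Tgm5 and so leaves 7 genes, and ran from 1.12 to 1.89 when 1 library was left out. Krtdap turned to -0.17 without day 7 mouse 1, the low end of a range that reached 0.48 without day 7 mouse 3. Tgm1 missed the threshold with DESeq2, robust fitting, glmTreat (which tests against the 0.6 limit itself), a mean count of at least 10 and thinning to the smallest library, and Evpl with glmTreat. Under glmTreat 16 of the 25 pathway calls and 622 of the 1901 calls over all genes were left, a stricter test by construction. Leaving out 1 library gave 797 to 2576 calls over all genes, fewest without day 5 mouse 2 and most without day 7 mouse 3, with 1 degree of freedom less. Scaling by library totals alone gave 950 higher and 1008 lower against the reported 1140 and 761, with a shift of the median gene of -0.09, and all 10 genes kept their sign under each scaling. With the mouse as a replicate block the counts were 6 of 10, 25 pathway genes and 2340 genes in all, and the block changed no call among the 10 genes. At this depth, genes under about 1 CPM cannot be compared between days unless the other day is far higher, as Tgm3 shows.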
